A study of Homo sapiens with 6 samples.

Results

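Lung lineage and surfactant genes were examined in H2122, a human lung cancer cell line, as 10 named genes of the 59050 gene symbols in the count files. They were NKX2-1, SFTPA1, SFTPB, SFTPC, SFTPD, NAPSA, HOPX, LPCAT1, SCGB1A1 and SCGB3A1, chosen by symbol as genes that mark lung epithelium or make surfactant, and all 10 symbols were found. RNA-seq libraries were compared from 3 samples of H2122 with a SMARCA4 knockout and 3 samples of parental H2122, both treated with vehicle only. The SMARCA4 protein is a motor subunit of SWI/SNF, a complex that moves nucleosomes. The sample titles carry a further number, 1 in every knockout title and 1, 3 and 6 in the parental titles, and the labels do not say what it marks, so a difference that goes with it cannot be told apart from the knockout. Nor do they say that replicates came from separate cultures, and p-values therefore reflect the spread among these 6 libraries, which may be technical.

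In the lung, NKX2-1 is the homeodomain transcription factor that specifies the epithelium and binds upstream of surfactant and secretoglobin genes. Alveolar type 2 cells make surfactant, a film of phosphatidylcholine and of the surfactant proteins encoded by SFTPA1, SFTPB, SFTPC and SFTPD, while alveolar type 1 cells, which carry gas exchange, express HOPX. NAPSA encodes a protease that processes surfactant protein B, LPCAT1 an acyltransferase that makes the disaturated lipid of surfactant, and SCGB1A1 and SCGB3A1 are secretoglobins of airway secretory cells.

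Reads assigned to genes numbered 55120937 to 59917980 per library, and 3 reads were taken here as the detection limit of a library. That limit corresponded to 0.0501 to 0.0544 CPM, the read count scaled to library size, here without TMM scaling factors. These limits, and the counting intervals given for low genes, cover counting error only. SMARCA4 itself stood at 21.6 ± 2.93 CPM in knockout libraries, against 260.3 ± 65.2 CPM in parental libraries (SD, n = 3 each), a log2 fold change of -3.59 (SE 0.22). Knockout and parental libraries separated on the first principal component, and parental replicate 3 stood apart from the other parental libraries on the second, so results that rest on it are also given without it. Mitochondrial transcripts took 4.85% to 6.73% of gene reads in knockout libraries, against 5.57% to 6.41% in parental libraries.

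The 250 bases upstream of annotated starts were read from RefSeq on GRCh38.p14 for the genes whose reads differed most between the groups, NKX2-1 and HOPX, and for SFTPA1 beside its close paralog SFTPA2. All are written 5′ to 3′ on the gene's own strand. The NKX2-1 windows are chr14:36520233-36520482 and chr14:36519557-36519806, and the HOPX windows are chr4:56681297-56681546 and chr4:56656518-56656767, all on the minus strand. Capitals in these 4 windows mark matches to the motifs given after them.
NKX2-1 upstream start: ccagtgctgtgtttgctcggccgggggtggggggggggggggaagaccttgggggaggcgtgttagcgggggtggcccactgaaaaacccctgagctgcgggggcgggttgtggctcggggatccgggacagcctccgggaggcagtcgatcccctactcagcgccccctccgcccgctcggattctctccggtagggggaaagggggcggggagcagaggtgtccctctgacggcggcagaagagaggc
NKX2-1 downstream start: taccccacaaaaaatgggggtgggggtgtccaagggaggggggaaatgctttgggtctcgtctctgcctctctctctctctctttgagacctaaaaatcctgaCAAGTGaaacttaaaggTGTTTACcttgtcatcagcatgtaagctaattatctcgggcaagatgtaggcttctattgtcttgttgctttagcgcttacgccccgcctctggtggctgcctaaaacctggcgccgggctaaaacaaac
HOPX upstream start: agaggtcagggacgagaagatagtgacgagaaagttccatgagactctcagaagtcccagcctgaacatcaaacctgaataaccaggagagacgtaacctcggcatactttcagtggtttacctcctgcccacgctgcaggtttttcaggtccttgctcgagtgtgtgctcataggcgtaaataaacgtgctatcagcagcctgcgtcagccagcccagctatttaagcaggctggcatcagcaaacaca
HOPX downstream start: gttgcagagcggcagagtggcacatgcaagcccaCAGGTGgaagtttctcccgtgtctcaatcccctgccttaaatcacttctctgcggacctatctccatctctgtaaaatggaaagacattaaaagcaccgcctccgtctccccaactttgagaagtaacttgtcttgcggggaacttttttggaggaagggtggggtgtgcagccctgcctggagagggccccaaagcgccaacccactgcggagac

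The SFTPA1 window is chr10:79610689-79610938 on the plus strand and the SFTPA2 window is chr10:79560408-79560657 on the minus strand. Here capitals mark the bases that differ between the aligned pair, or that face a gap.
SFTPA1: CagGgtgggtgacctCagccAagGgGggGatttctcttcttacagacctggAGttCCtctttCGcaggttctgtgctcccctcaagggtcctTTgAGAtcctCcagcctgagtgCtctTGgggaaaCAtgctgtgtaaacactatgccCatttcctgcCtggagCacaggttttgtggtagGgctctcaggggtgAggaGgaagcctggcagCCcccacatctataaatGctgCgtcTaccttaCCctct
SFTPA2: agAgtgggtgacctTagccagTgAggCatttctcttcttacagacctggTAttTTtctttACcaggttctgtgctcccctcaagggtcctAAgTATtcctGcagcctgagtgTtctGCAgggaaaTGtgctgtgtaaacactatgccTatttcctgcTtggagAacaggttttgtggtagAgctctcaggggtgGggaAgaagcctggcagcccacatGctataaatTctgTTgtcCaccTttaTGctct

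Of the 254 aligned columns of the SFTPA pair, 213 were identical (83.9%) and 8 held a gap. Windows were found for 8 of the 10 genes, 12 windows in all, and 6 motifs were searched on both strands, with the share of all 35116 RefSeq windows of this length that hold each. CTCAAG, a core of sites bound by NKX2-1, was in the SFTPA1 window and 1 NAPSA window (10.4% of all windows). CAAGTG, bound by NK2 homeodomain proteins, was in the NKX2-1 downstream window (9.5%). TGTTTAC, a forkhead site, was in the same NKX2-1 window and in that of SFTPA1 (2.98%). CAGGTG, an E-box, was in the HOPX downstream window and in 1 window each of NAPSA, SFTPB and SFTPD (17.5%). TGACTCA, an AP-1 site, was in 1 window each of SFTPB and SFTPD (4.2%), and TATAAA was in that of SFTPA1 (10.7%). The SFTPA2 window held the same 3 motifs as that of SFTPA1. None of the motifs overlapped in letters within a window printed here. A match is a description of letters, not evidence that a factor binds. GC content over the 12 windows ran between 46.8% and 78.8%, against a median of 58% over all windows, and the highest was that of LPCAT1, with 28 CpG.

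Of the 10 genes, 5 were at or below the detection limit in at least 1 library of each group. SCGB3A1 had 0 reads in every library. SFTPA1 and SFTPC had at most 3 reads in any of the 6 libraries, and SFTPB and SCGB1A1 were at or below 3 reads in at least 1 library of each group. NKX2-1 and HOPX exceeded the limit in every parental library and in no knockout library. Only SFTPD, NAPSA and LPCAT1 exceeded it in all 6. Checked against the tissue given in the labels, lung, few lineage transcripts were present: of the 10 genes, 3 were above the limit in every knockout library and 5 in every parental library. LPCAT1, which many cell types express, took between 97.5% and 99.0% of the reads of the 10 genes, and the other 9 genes together had 91, 105 and 135 reads in knockout replicates 1 to 3, against 147, 180 and 172 in parental replicates 1 to 3.

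**Figure D1:**
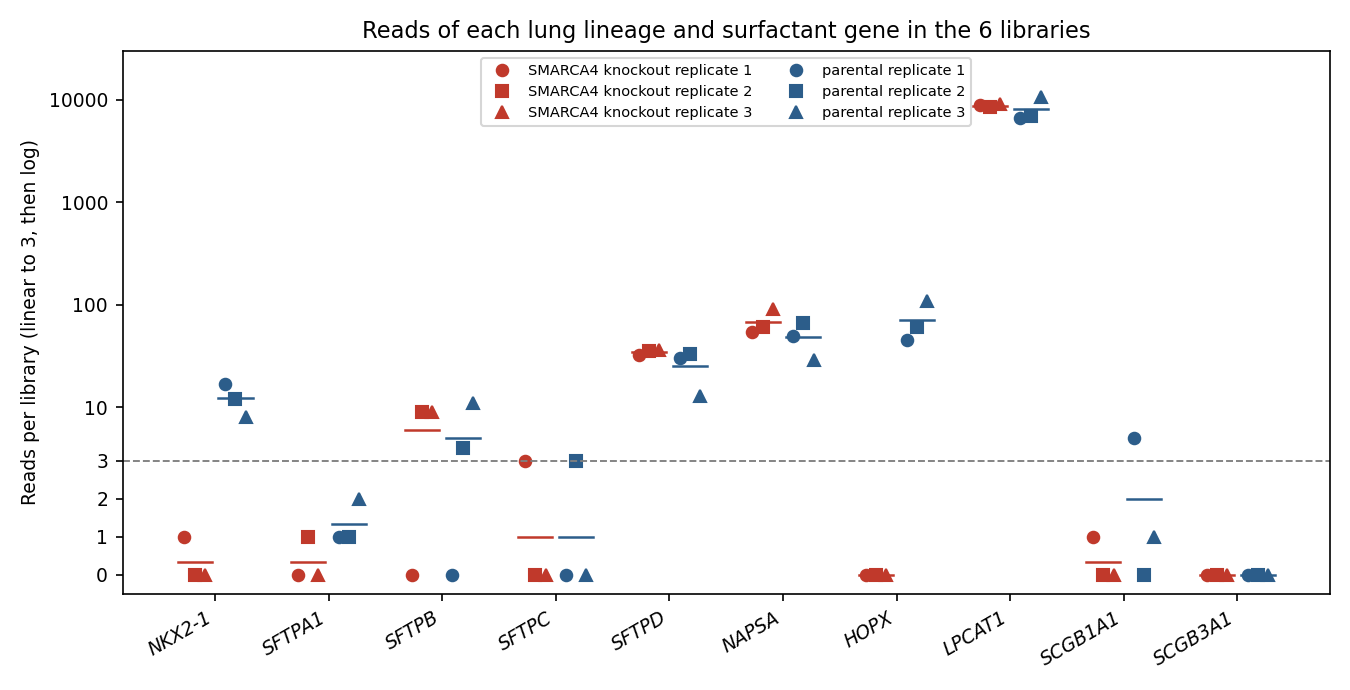
Reads of each of the 10 genes (vertical axis, linear up to 3 reads and logarithmic above) in SMARCA4 knockout libraries (red) and parental libraries (blue), with 1 point per library, a bar at each group's mean and a dashed line at the limit of 3 reads. LPCAT1 lies between 6622 and 10628 reads, NKX2-1 and HOPX are over the line in the parental libraries and under it in the knockout libraries, and SCGB3A1 is at 0 throughout.

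After the low-count filter 4 of the 10 genes were tested and 6 were removed. Among the 4, HOPX fell, none rose, and SFTPD, NAPSA and LPCAT1 did not pass (edgeR quasi-likelihood test, adjusted p under 0.05). Over all 17809 genes tested, 14.3% fell and 13.3% rose, 27.6% in all, so 1 gene of 4 is near the background. HOPX, tested through its parental reads alone, had to differ to be tested at all. With no filter on low counts, 9 of the 10 genes were tested and 2 fell, HOPX and NKX2-1, against 8.49% of 33357 genes falling and 5.61% rising.

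NKX2-1 (chr14:36516392-36521149, minus strand, GENCODE 29 on GRCh38) had 1, 0 and 0 reads in the knockout libraries, against 17, 12 and 8 reads in the parental libraries. The groups did not overlap, as was so for 49.8% of the genes tested with the low-count filter. Even the parental reads are few for the transcription factor that defines the lineage. The ratio of CPM was 0.0273 in the knockout over the parental libraries, with a 95% counting interval of 0.000673 to 0.162. Without the low-count filter its log2 fold change was -4.81 (SE 0.84, adjusted p = 0.00478, edgeR), a fitted size that depends on the prior count, and it passed in all 11 of the other fits without a filter, with adjusted p of at most 0.0356. Of its exon bases 12.7% overlap other annotated genes, among them its antisense partner NKX2-1-AS1, and strand was not stated for the counts, so reads in those bases cannot be told apart. In bulk libraries, fewer cells with a transcript and less of it per cell cannot be told apart either, here and for every gene that follows.

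HOPX (chr4:56647988-56681899, minus strand) encodes a small homeodomain protein without DNA binding of its own, a marker of alveolar type 1 cells. It had 0, 0 and 0 reads in the knockout libraries, against 45, 60 and 108 reads in the parental libraries. Every knockout library was thus below every parental library, and parental replicate 3 was the highest. Groups did not overlap for 49.8% of all genes tested. In CPM it was 0 in knockout libraries, against 1.23 ± 0.589 in parental libraries (SD, n = 3 each). With the knockout group set at 3 counts it was 70.3-fold lower there, and 51.5-fold lower without parental replicate 3. These folds are not lower bounds: the ratio of CPM, knockout over parental, had a 95% counting interval of 0 to 0.0176. The fitted log2 fold change of -9.15 (adjusted p = 0.00479, edgeR) depends on the prior count, and the gene passed in all 12 other fits that tested it, with adjusted p of at most 0.0219. Of the 18642 genes with more than 3 reads in every parental library, 113 (0.606%) had 0 reads in all 3 knockout libraries. HOPX shared no stretch of 50 bases with another transcript.

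The surfactant protein genes divided into SFTPD, which was measurable, and the others, which were at or near the limit. SFTPD (chr10:79937740-79982614, minus strand), a secreted collectin that binds microbial sugars, had 32, 35 and 36 reads in the knockout libraries, against 30, 33 and 13 reads in the parental libraries. In CPM this was 0.566, 0.635 and 0.596 in knockout libraries, against 0.525, 0.553 and 0.229 in the parental libraries. The groups did not overlap, as was so for 49.8% of all genes tested, and the low parental value was replicate 3. Its log2 fold change of 0.46 (SE 0.35, 95% interval -0.40 to 1.31, adjusted p = 0.390, edgeR) did not pass, and without parental replicate 3 it was 0.10 (95% interval -0.43 to 0.64). Of SFTPD's exon bases 5.9% overlap BMS1P21 on the opposite strand. Strand was not stated for the counts, so reads in those bases cannot be told apart.

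SFTPB, a hydrophobic protein needed for the surfactant film, had 0, 9 and 9 reads in the knockout libraries, against 0, 4 and 11 reads in the parental libraries. Both groups held a library with 0 reads, and the ratio of CPM was 1.21 (95% counting interval 0.577 to 2.58). SFTPC, the other hydrophobic protein and the classic type 2 cell marker, had 3, 0 and 0 reads in knockout libraries, against 0, 3 and 0 in parental libraries, and no fold is given. SFTPA1 (chr10:79610939-79615455, plus strand), a collectin, had 0, 1 and 0 reads in knockout libraries, against 1, 1 and 2 in parental libraries, giving a CPM ratio of 0.252 (95% counting interval 0.00512 to 2.55). These 3 genes overlapped between the groups, and a difference was not detectable at this depth.

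SFTPA2, the paralog of SFTPA1 whose promoter window is printed above, was measurable in the parental libraries. It had 0, 0 and 0 reads in the knockout libraries, against 26, 25 and 61 reads in the parental libraries. These did not overlap, as was so for 49.8% of all genes tested. It stood at 0 CPM in knockout libraries, against 0.649 ± 0.368 CPM in parental libraries (SD, n = 3 each). It passed at adjusted p = 0.00976 (edgeR). With the knockout group set at 3 counts it was 37-fold lower there, and 25-fold lower without parental replicate 3. These folds are not lower bounds: the ratio of CPM, knockout over parental, had a 95% counting interval of 0 to 0.0338. Like HOPX, SFTPA2 was tested through its parental reads alone and had to be lower in the knockout to be tested. SFTPA1 shares 18.7% of its stretches of 50 bases with SFTPA2, so a division of reads between the pair is uncertain.

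NAPSA (chr19:50358477-50365830, minus strand), whose product is used in pathology to mark lung adenocarcinoma, had 54, 60 and 90 reads in knockout libraries, against 49, 67 and 29 reads in parental libraries. In CPM it stood at 0.955, 1.09 and 1.49 in knockout libraries, against 0.858, 1.12 and 0.510 in the parental libraries. The groups overlapped, and parental replicate 3 was again the lowest library. The log2 fold change of 0.50 (SE 0.34, 95% interval -0.32 to 1.33, adjusted p = 0.328, edgeR) did not pass, and it was 0.21 (-0.32 to 0.74) without parental replicate 3. NAPSA shares 5.03% of its 50-base stretches with the related locus NAPSB. The genes with the most similar profile over the 6 libraries, of 10982 genes with a mean of at least 5 CPM, were ECHDC2, WBP1 and CCDC84, with root-mean-square differences in centred log2 CPM of 0.0638, 0.0651 and 0.0797.

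LPCAT1 (chr5:1456480-1523977, minus strand) was the only abundant gene of the 10. It had 155, 154 and 150.03 CPM in the knockout libraries, against 116, 117 and 187 CPM in the parental libraries. The knockout libraries lay close together, between parental replicates 1 and 2 below and parental replicate 3 above. Its mean was 153 ± 2.66 CPM in knockout libraries, against 139.8 ± 40.8 CPM in parental libraries (SD, n = 3 each), with a log2 fold change of 0.13 (SE 0.20, 95% interval -0.37 to 0.63, adjusted p = 0.681, edgeR). This result rested on parental replicate 3: without it the log2 fold change was 0.35 (SE 0.04, 95% interval 0.26 to 0.44) and passed at adjusted p = 1.37e-05, in a fit where 30.8% of 18372 genes rose and 30.8% fell, 61.6% in all. In that fit 5 of the 10 genes were tested, LPCAT1 rose, HOPX and NKX2-1 fell, and SFTPD and NAPSA did not pass. HOPX and NKX2-1 were tested there through their parental reads alone and had to be lower in the knockout to be tested. What sets parental replicate 3 apart was not tested. The genes with the most similar profile, of 10981, were CCDC51, HSD17B7 and ITPK1, at root-mean-square differences of 0.0174, 0.0225 and 0.0243.

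The secretoglobin genes gave almost no reads. SCGB1A1, the club cell secretory protein, had 1, 0 and 0 reads in knockout libraries, against 5, 0 and 1 reads in parental libraries, giving a CPM ratio of 0.168 (95% counting interval 0.00366 to 1.39). SCGB3A1 had no read in any library, which allows a level of up to 0.0501 to 0.0544 CPM per library, without TMM scaling. The groups overlapped for SCGB1A1, and 16.5% of its exon bases overlap another annotated gene.

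**Figure D2:**
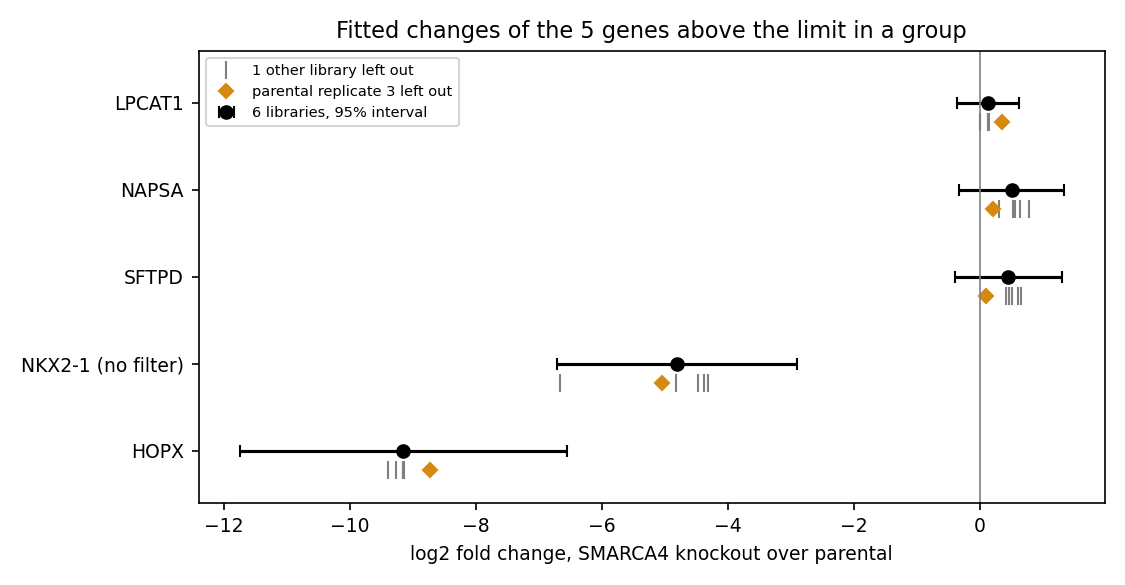
Log2 fold changes, knockout over parental (horizontal axis), of the 5 genes above 3 reads in every library of a group, with points for the fit over 6 libraries, bars for 95% intervals, orange diamonds for the fit without parental replicate 3 and grey ticks for fits without each other library. NKX2-1 is from the fits without a low-count filter, and HOPX and NKX2-1 lie far below 0 while the intervals of SFTPD, NAPSA and LPCAT1 include 0.

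Levels can be compared between genes only per length, and TPM was computed from exon lengths for that purpose. In the knockout libraries the order was LPCAT1 at 86.95 ± 2.31 TPM, SFTPD at 1.67 ± 0.0947 TPM and NAPSA at 1.21 ± 0.275 TPM, with no overlap between these neighbours at this length, and every other gene averaged under 0.1 TPM. In the parental libraries LPCAT1 was at 76.1 ± 14.6 TPM, SFTPD at 1.21 ± 0.568 TPM, NAPSA at 0.849 ± 0.362 TPM, HOPX at 0.555 ± 0.211 TPM and NKX2-1 at 0.247 ± 0.107 TPM (SD, n = 3 each). The ranges of SFTPD, NAPSA and HOPX overlapped in the parental libraries, so their order there does not exceed the spread. With the longest transcript as the length, parental HOPX was at 1.02 TPM and second in the order. At that length the knockout ranges of SFTPD (1.225 to 1.38 TPM) and NAPSA (0.8055 to 1.257 TPM) overlapped, so their order is not firm there either. LPCAT1 was above 91.7% of 19691 protein-coding genes in the knockout and above 89.7% in the parental libraries, while SFTPD was above 43.6% and 41.1% of them in the same groups.

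**Figure D3:**
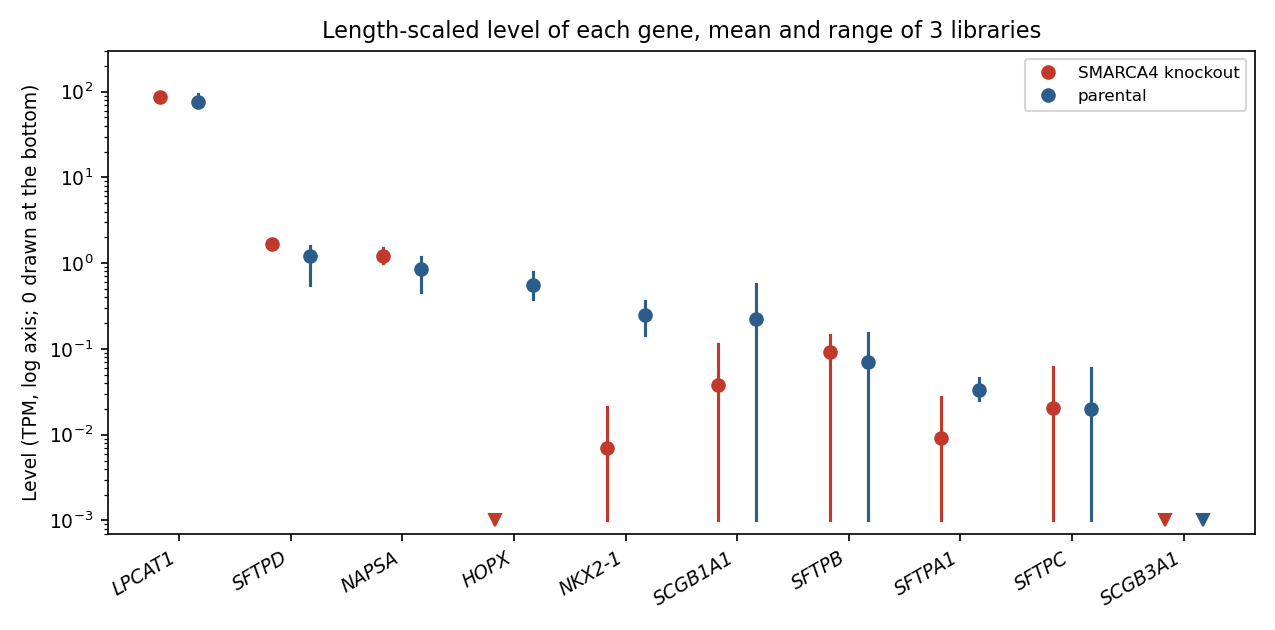
Length-scaled level (TPM, log axis) of each gene as the mean of 3 libraries, with a line from the lowest to the highest library, knockout in red left of parental in blue; triangles at the bottom mark groups with 0 reads. LPCAT1 lies near 87 TPM in knockout libraries, against 76.1 TPM in parental libraries, and every other gene lies under 2 TPM.

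Other genes of lung, foregut and surfactant programs were grouped in 16 lists, whose counts and medians over the tested genes are descriptions. The counts stand beside 14.3% of all genes falling and 13.3% rising. Those without parental replicate 3 stand beside 30.8% falling and 30.8% rising, 61.6% in all. Of the list genes tested, 8 had under 10 reads in every knockout library and had to be lower there to be tested (SFTPA2, BPIFB1, WFDC2, FOXA2, PIFO, CD79A, LYZ and CD68), and 2 had under 10 reads in every parental library and had to be higher in the knockout (KRT14 and GKN2). CDH5, at 4, 10 and 1 reads in the parental libraries, was tested through its knockout reads alone and also had to be higher in the knockout. In the fit without parental replicate 3, FOXJ1, TPPP3 and VWF likewise had to be lower in the knockout. COL3A1, PECAM1 and CDH5 had to be higher there, the first pair with under 10 reads in parental replicates 1 and 2. Of 16 further type 2 and surfactant genes, 9 were tested, 2 rose, 4 fell and 3 did not pass, with a median log2 fold change of -0.86 against 0.02 over all genes tested. ABCA3, the lipid pump of lamellar bodies, stood at 71.9, 69.5 and 69.2 CPM in knockout libraries, against 34.2, 35.6 and 34.5 CPM in parental libraries, and rose by 1.01 (SE 0.09, adjusted p = 0.000461, edgeR). CTSH, a protease that processes surfactant protein precursors, stood at 39.6, 37.7 and 36.1 CPM in knockout libraries, against 70.8, 67.1 and 67.3 CPM in parental libraries, and fell by 0.86 on the log2 scale. For both genes the groups were far apart relative to their spread, in opposite directions. The genes SFTA3 and CSF2RA of this list had 0 reads. Without parental replicate 3, 2 of the 9 rose and 5 fell.

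Of 11 further type 1 genes, 9 were tested, 1 rose, 4 fell and 4 did not pass, with a median of -0.41. EMP2, a membrane protein, averaged 19.2 ± 3.42 CPM in knockout libraries, against 70.8 ± 3.25 CPM in parental libraries, and fell by 1.88 on the log2 scale (adjusted p = 0.000409, edgeR). CLIC5, a chloride intracellular channel family protein, fell by 3.58 on the log2 scale and SPOCK2, a proteoglycan, rose by 1.25. HOPX is not counted in this list. Without parental replicate 3 there were 1 rise and 6 falls, in a fit where 61.6% of all genes passed.

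Of 11 further club and airway secretory genes, 6 were tested, 5 fell, 0 rose and 1 did not pass, at a median of -4.09 (6 falling without parental replicate 3). BPIFB1 and WFDC2, which had to be lower in the knockout to be tested, are among the 5. LCN2, an iron-scavenging antimicrobial protein, averaged 6.65 ± 0.395 CPM in knockout libraries, against 199.8 ± 95.5 CPM in parental libraries, and fell by 4.91 on the log2 scale (adjusted p = 0.000720, edgeR). BPIFB1 and WFDC2, both secreted defence proteins, had log2 fold changes of -6.04 and -6.24, with at most 0.0828 CPM in any knockout library. Of 8 other secretoglobins, 5 were at or below 3 reads in every library, 4 of those had 0 reads, and 1 was tested and did not pass, SCGB2B2 at 0.50 (adjusted p = 0.687). SCGB3A2, removed by the filter, averaged 0.114 CPM in knockout libraries, against 0.0809 CPM in parental libraries, with overlap. SCGB2A1, also removed by the filter, had 0, 0 and 0 reads in the knockout libraries, against 13, 9 and 3 reads in the parental libraries. With the knockout group set at 3 counts it was 8.25-fold lower there, and the ratio of CPM had a 95% counting interval of 0 to 0.161. SCGB2A1 passed in the fit without a filter (adjusted p = 0.0205, edgeR), and parental replicate 3 was itself at the limit.

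Transcription factors of foregut endoderm, the tissue that gives rise to lung, were mixed. Of 23, 16 were tested, 3 rose, 6 fell and 7 did not pass, at a median of -0.60, and without parental replicate 3 there were 4 rises and 11 falls. FOXA2, a forkhead pioneer factor that acts with NKX2-1 in lung epithelium, averaged 0.0819 ± 0.0638 CPM in knockout libraries, against 3.70 ± 1.52 CPM in parental libraries (SD, n = 3 each), and fell by 5.47 on the log2 scale (adjusted p = 0.00179, edgeR). Its paralog FOXA1 averaged 69.3 ± 1.38 CPM in knockout libraries, against 150.9 ± 10.1 CPM in parental libraries, and fell by 1.12. ELF3, an epithelial ETS factor, fell by 1.92. All 3, named for the smallest adjusted p of the list, were lower in every knockout library than in any parental library. Groups did not overlap for 49.8% of all genes tested, and FOXA2 had to be lower in the knockout to be tested.

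Genes of gut and stomach, lineages that NKX2-1 restrains in mouse lung tumours, were counted in the same way. Of 14, 5 were tested, 4 fell and 1 rose, at a median of -1.99, and the counts were the same without parental replicate 3. AGR2, a disulfide isomerase of mucus-making cells, averaged 19.0 ± 1.89 CPM in knockout libraries, against 323 ± 110 CPM in parental libraries, and fell by 4.09 on the log2 scale, TFF1, a trefoil peptide, fell by 1.83, and VSIG1, a gastric junction protein, fell by 2.74. Of 9 ciliated cell markers, 5 were tested, 3 fell and 0 rose, at a median of -1.55 (6 falling of 7 without parental replicate 3), with RSPH1, DNAH5 and PIFO at -2.21, -1.55 and -2.08. Among the 6 falls without parental replicate 3 were FOXJ1, TPPP3 and PIFO, which had to be lower in the knockout to be tested. Of 6 basal cell markers, 3 were tested. KRT15 fell by 2.88 and TP63 fell by 4.69, with TP63 at 2.32, 2.61 and 2.30 CPM in knockout libraries, against 96.7, 83.6 and 5.96 CPM in parental libraries, and KRT14 rose by 1.97, with the same counts without parental replicate 3.

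Most genes of the lipid side of surfactant could be tested. Of 13 acyltransferases and phosphatidylcholine synthesis genes other than LPCAT1, 12 were tested, 6 fell, 0 rose and 6 did not pass, at a median of -0.41 (3 rises and 8 falls without parental replicate 3). LPCAT2, an acyltransferase of inflammatory cells, averaged 11.4 ± 0.312 CPM in knockout libraries, against 22.2 ± 1.54 CPM in parental libraries, and fell by 0.96 on the log2 scale (adjusted p = 0.00152, edgeR). MBOAT2 and MBOAT1, further lysophospholipid acyltransferases, fell too, with log2 fold changes of -0.85 and -1.71. Per length of all exons, LPCAT1 had the highest computed level of its family. In the knockout libraries LPCAT1 was at 86.95 TPM, LPCAT4 at 34.3 TPM, LPCAT3 at 12.5 TPM and LPCAT2 at 5.67 TPM. In the parental libraries the levels were 76.1, 40.05, 22.99 and 10.7 TPM in the same order of genes. Of LPCAT3's exon bases 65.6% overlap EMG1 on the opposite strand. Strand was not stated for the counts, so reads in those bases cannot be told apart and LPCAT3's place in the order is uncertain. With the longest transcript as the length, LPCAT1 was at 75.7 TPM and LPCAT4 at 54.8 TPM in the knockout libraries, and at 66.7 ± 12.5 TPM and 64.4 TPM in the parental libraries, where the order is within the spread.

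Of 11 genes of fatty acid supply, 11 were tested, 3 fell, 0 rose and 8 did not pass, at a median of -0.52, which was -0.17 without parental replicate 3 with 1 rise and 7 falls. LPIN2, a phosphatidate phosphatase, averaged 18.7 ± 0.0836 CPM in knockout libraries, against 36.3 ± 4.19 CPM in parental libraries, and fell by 0.96 on the log2 scale. ELOVL6, a fatty acid elongase, fell by 1.69, and GPAM, which starts glycerolipid synthesis, fell by 0.72. Among 10 other aspartic proteases, the family of NAPSA, 3 were tested: BACE2 fell by 2.29, CTSD fell by 0.46 and BACE1 rose by 2.11. Among 5 collectins other than the members, 3 were tested and SFTPA2 alone fell (2 falling without parental replicate 3).

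**Figure D4:**
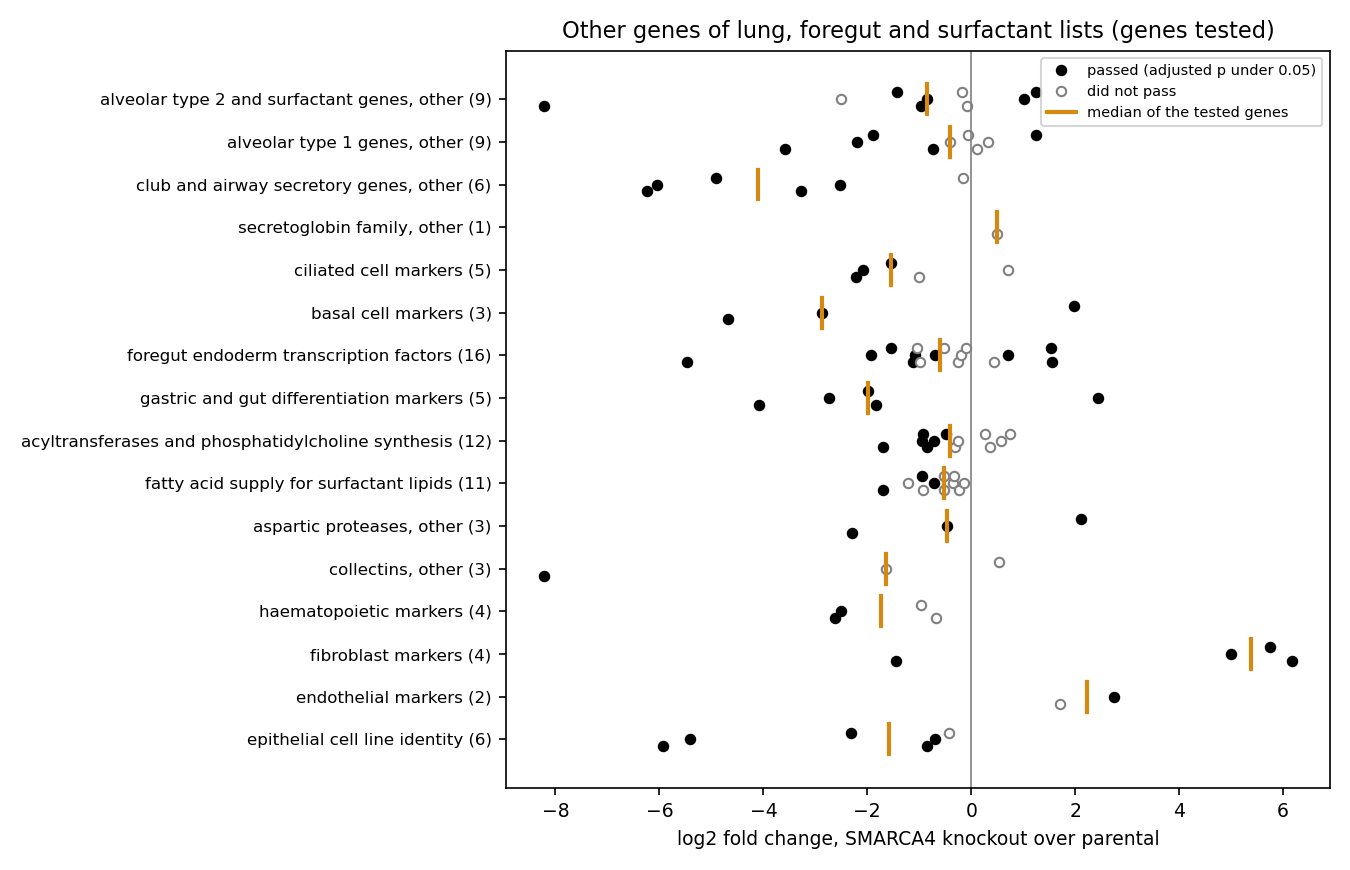
Log2 fold changes, knockout over parental (horizontal axis), of the tested genes of each of 16 lists (rows, with the number tested), with filled points for genes past an adjusted p of 0.05, open points for the others and an orange bar at each list's median. The medians are -0.86 for other type 2 genes, -0.41 for other type 1 genes and -4.09 for airway secretory genes.

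Over the 16 lists 60 genes passed, and without knockout replicate 2 or 3 the number was 38 or 35. The calls of RSPH1, DNAH5, GPAM, CTSD and TP63 were each lost without any 1 knockout library (adjusted p of at most 0.0946, edgeR), and that of TP63 also under limma-voom (adjusted p = 0.0877). The call of ELOVL6 was lost without knockout replicate 3, that of KRT14 without knockout replicate 1 or 2 or parental replicate 2, that of PIFO without knockout replicate 1 or 3 or parental replicate 1 or 2, that of CDH5 without knockout replicate 1 or 3 or parental replicate 1, and that of GPAM also without parental replicate 1.

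Markers of other cell types moved as well, and their part in the results above was not tested. Of 6 epithelial identity genes 5 fell and 0 rose, at a median of -1.59, and their summed level was 3157 to 3422 CPM in knockout libraries, against 6931 to 7700 CPM in parental libraries. KRT19 fell by 5.40 on the log2 scale, EPCAM fell by 2.32 and CDH1 fell by 5.94. Of 6 fibroblast markers 4 were tested, 3 rose and 1 fell, at a summed level of 92.0 to 98.1 CPM in knockout libraries, against 39.4 to 111.4 CPM in parental libraries. LUM rose by 6.18, MFAP5 by 5.74 and COL3A1 by 5.00 (6.76 and 6.78 for the last pair without parental replicate 3). The fibroblast marker that fell was COL1A1, by 1.46 (adjusted p = 0.0408, edgeR). It averaged 23.5 ± 1.74 CPM in knockout libraries, against 64.5 ± 38.7 CPM in parental libraries, where replicate 3 alone stood at 109 CPM. Haematopoietic markers summed to 0.490 to 0.878 CPM in knockout libraries, against 1.56 to 2.09 CPM in parental libraries, with PTPRC at 0 reads and 2 of 4 tested genes, CD79A and LYZ, falling. Endothelial markers summed to 0.926 to 1.40 CPM in knockout libraries, against 0.510 to 0.560 CPM in parental libraries, and CDH5 of 2 tested genes rose by 2.74. CDH5 was tested through its knockout reads alone and had to be higher there. Without parental replicate 3, 3 endothelial genes were tested and 2 rose, while VWF fell by 2.78, and the falling epithelial genes numbered 6. In that fit VWF had to be lower in the knockout to be tested, and PECAM1 and CDH5, the genes that rose, had to be higher.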

How the data were processed

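RNA-seq was available for 6 libraries of total RNA, 3 of the SMARCA4 knockout and 3 of the parental line, grouped by their sample titles. The deposited values are raw read counts per gene symbol, made by the authors with TopHat2 2.1.1 and HTSeq 0.11.0 on hg38, per the submitters' processing notes; the sources used here name no annotation release, strand setting or filter. The 5 classes of unassigned reads, 13.8% to 15.3% of each file, entered neither library sizes nor tests. The 10 genes and the 16 lists of other genes were chosen with earlier results of these data known.

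Low counts were removed by filterByExpr (default settings) and TMM factors applied, and 17809 genes were tested with edgeR 4.0.16 in R 4.3.3 (robust quasi-likelihood F-test, two-sided, group as the only term), with Benjamini-Hochberg adjustment over all genes tested and a threshold of 0.05. CPM values are after TMM scaling, except those of the detection limit. TPM was computed from the counts with GENCODE 29 exon lengths, matched by symbol for 56159 of 59050 symbols. Where a group had few reads, the ratio of CPM is given with a 95% counting interval (Clopper-Pearson). Where it had 0, a fold is also given with that group set at 3 counts and the parental count taken as exact. The fit was tested on simulated data.

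From each list up to 3 passing genes with the smallest adjusted p are named, or, where none passed, the 2 of highest mean CPM. LPCAT3, LPCAT4, PTPRC, SFTA3, CSF2RA, SCGB2A1, CD68, GKN2, VWF, COL1A1, FOXJ1, TPPP3 and PECAM1 were named after their values were seen. Genes with similar profiles were sought for members with a mean of at least 1 CPM. Alternatives were DESeq2 1.42.0 and limma-voom (limma 3.58.1) in place of edgeR, upper-quartile or RLE factors, a filter of at least 1 CPM in 3 libraries or none, the replicate number as a block, and each library left out in turn. For genes that the filter removed, the fits that combine no filter with another alternative were added after seeing the data. Windows and motifs were searched in RefSeq, GRCh38.p14.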

Additional observations from a re-analysis of the deposited data

How the results depend on the processing

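The direction of HOPX, and its call, held in all 12 other fits that tested it, and SFTPD and NAPSA passed in none. In the fits with a low-count filter HOPX was tested through its parental reads alone, so its direction there was fixed by the filter. The count of lung genes rising was 0 in all fits but the one without parental replicate 3, where it was 1, LPCAT1, so with single libraries left out it ranged over 0 to 1. The count falling was 1. It was 2 with no low-count filter, where NKX2-1 was tested, and 0 with at least 1 CPM in 3 libraries, where HOPX was not tested. With single libraries left out it was 1 to 2. Where NKX2-1 passed the filter in those fits, it did so through its parental reads alone and had to be lower in the knockout. Genes above the limit ranged over 3 to 4 in the knockout and 5 to 6 in the parental libraries with single libraries left out, and 4 parental genes exceeded 10 reads in every library. Over all genes, 2365 rose and 2547 fell; with single libraries left out the numbers were 1221 to 5665 rising and 1471 to 5660 falling, and those of list genes passing 35 to 87. The replicate numbers did not pair the samples (correlations of same-numbered libraries of -0.04, 0.01 and -0.07 in deviations from the group means), and with the replicate number as a block 1378 genes rose, 1662 fell and 48 list genes passed; among named genes TP63, PIFO, CTSD and CDH5 lost their calls (adjusted p of 0.0574 to 0.0813). Signs reversed for SFTPB, 0.22 over 6 libraries without the low-count filter, at -0.23 without knockout replicate 2, -0.12 without knockout replicate 3 and -0.32 without parental replicate 1, for CCDC51 at -0.0011 and -0.0034 without parental replicates 1 and 2, for HSD17B7 at -0.0103 without parental replicate 1, and for SCGB2B2 at -0.0798 without parental replicate 3. With single libraries left out SFTPB, CCDC51, HSD17B7 and SCGB2B2 reached at most 1.48, 0.354, 0.319 and 1.43, and CCDC51, HSD17B7 and ITPK1 passed without parental replicate 3 alone; the cause was not tested. All genes' median was -0.03 under RLE and 0.07 under upper-quartile scaling. Depth limits SFTPA1, SFTPB, SFTPC, SCGB1A1 and SCGB3A1, where a difference was not detectable.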

Other observations

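The nearest tested protein-coding genes on either side of the 2 genes that lost their reads were looked up after the data were examined, and are given as values. Beside NKX2-1, NKX2-8, a related homeodomain gene 59430 bases away, averaged 2.42 ± 0.210 CPM in knockout libraries, against 1.88 ± 0.829 CPM in parental libraries (SD, n = 3 each), a log2 fold change of 0.37 (95% interval -0.52 to 1.26), and MBIP on the other side had -0.01 (-0.26 to 0.24). Beside HOPX, REST, a repressor of neuronal genes 225977 bases away, averaged 73.5 ± 5.85 CPM in knockout libraries, against 77.2 ± 21.7 CPM in parental libraries, a log2 fold change of -0.07 (-0.60 to 0.46), and THEGL had 0.20 (-0.97 to 1.37). All 4 of these neighbours overlapped between the groups and did not pass (edgeR, adjusted p of at least 0.506).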
